A study of Mus musculus with 8 samples.

Results

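The comparison set knockdown of Brd9 directly against knockdown of Baf180 (gene symbol Pbrm1) in proliferating C2C12 cells, an established mouse myoblast line. It used 4 of the 8 RNA libraries of the series, namely the 2 libraries of each knockdown, and no scramble library. Cells of both groups were infected with an shRNA lentivirus with polybrene present, selected with puromycin and then kept in it, and RNA was taken by TRIzol while they were growing. Both groups thus share infection, selection and growth medium, and differ in the mRNA that the shRNA targets. The titles carry a single construct tag per target, so an effect of a construct on other mRNAs cannot be told apart from an effect of its target. Whether each pair of libraries stems from separate cultures is not said in the labels, and the spread behind the p-values may therefore be technical only. Every difference below is Brd9 minus Baf180 knockdown: "higher" means more mRNA in the Brd9 knockdown, and the comparison cannot tell which of the 2 knockdowns moved.

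Brd9 and Baf180 belong to different forms of the SWI/SNF chromatin remodeller, which uses ATP to move or evict nucleosomes around a shared core with Smarca4 or Smarca2 as its motor. Brd9, a bromodomain protein, marks the non-canonical form (ncBAF) together with Bicra or Bicral. Baf180, a protein with several bromodomains, marks the polybromo form (PBAF) together with Arid2, Brd7 and Phf10. The canonical form (cBAF) carries Arid1a or Arid1b, and SWI/SNF as a whole is known in muscle for opening chromatin at targets of the myogenic factor Myod1.

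Library totals ran from 18148388 to 20400855 estimated counts, and 14195 to 14768 genes had a count. All 10 myoblast markers had counts in these libraries, and 4 of them, described below, were called lower in the Brd9 knockdown in both fits used here (Myod1, Des, Itga7 and Tnnt2). The list had a summed level of 6445 and 7151 CPM (counts relative to the TMM-scaled library size) for Brd9 and 8424 and 7413 for Baf180. Of 10 immune markers, 5 were at 0 in all 4 libraries and the whole list summed to 2.27 to 3.54 CPM, while 10 endothelial markers summed to 10.2 to 12.8 CPM with 2 at 0. Of 10 epithelial markers, 4 were at 0, and the sum was 26 and 30.1 CPM against 53 and 37.2. Smooth muscle contractile genes, which myoblasts also express, summed to 8013 and 9561 CPM under Brd9 and 15923 and 12685 CPM under Baf180 knockdown. The part of these levels in the results was not tested, and in bulk RNA fewer cells of a type and less RNA per cell cannot be told apart.

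Each shRNA library was low in its own target. Counts of Brd9 were 157 and 135 in its own knockdown and 593 and 670 in the other, a log2 difference of -2.26 ± 0.25 (SE, adjusted p = 6.26e-06), or 4.79-fold, under TMM scaling and -2.28 ± 0.14 with the GC and length offsets described next. Counts of Pbrm1 were 65 and 86 in its own knockdown and 1365 and 957 in the other, a difference of 3.79 ± 0.27 (adjusted p = 2.46e-08), or 13.8-fold, under TMM and of 2.70 ± 0.15 (adjusted p = 2.2e-07), or 6.48-fold, with offsets. Its transcript holds 43.2% GC. The CPM of the groups did not overlap at either gene, which was so for 79.1% of all tested genes. Arid1a, which neither shRNA targeted, had 3618 and 3215 counts against 2747 and 3269 and differences of 0.04 ± 0.19 (adjusted p = 0.889) and 0.23 ± 0.14 (adjusted p = 0.237). Per kilobase of transcript, Brd9 stood at a mean of 2.99 CPM in its own knockdown and 14.3 CPM in the other, and Pbrm1 at 7.13 and 0.515 CPM.

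Differences between the libraries followed the GC content of the transcript. Over 11993 tested genes with a known GC content, Spearman's rho of the log2 difference on GC content was -0.72 as a description across genes, which are not independent replicates. Split into 10 bins by GC content, the genes of the lowest bin (33.2% to 42.4%) deviated from the 4-library mean by a median of 0.79 and 0.37 for Brd9 and -0.77 and -0.37 for Baf180, on the log2 CPM scale. In the highest bin (58.5% to 72.8%) it was -0.42 and -0.17 against 0.49 and 0.12. The trend was also present between libraries of 1 group, with rho of -0.65 for Brd9 replicate 1 minus replicate 2 and 0.64 for Baf180 replicate 1 minus replicate 2. It was shallowest between the second replicates, where rho was -0.57. A trend between and within the groups and an effect of the knockdowns that runs with GC content cannot be told apart in these 4 libraries, and the cause of the trend was not tested. Results are therefore given in 2 fits: one with TMM scaling alone, and one with an offset per library that takes out a smooth trend on GC content and on transcript length. With the offsets rho was -0.02, and the median difference in the lowest bin went from 1.20 to 0.01. The offsets also remove any real difference that runs with GC content or length.

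**Figure D1:**
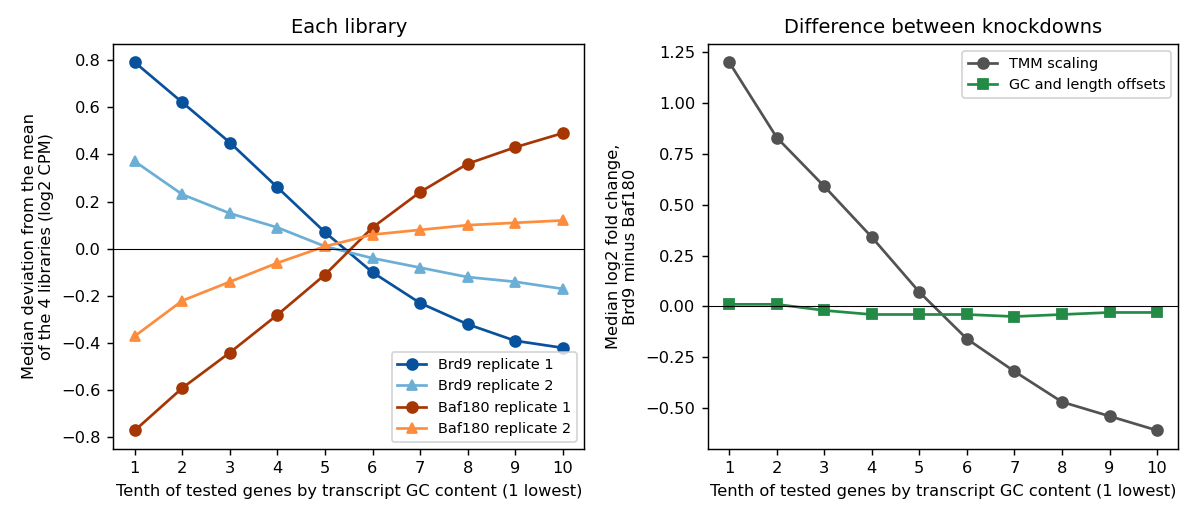
Left: median deviation of log2 CPM from the mean of the 4 libraries in each of 10 bins of tested genes by transcript GC content, 1 line per library (circles replicate 1, triangles replicate 2). Right: median log2 difference, Brd9 minus Baf180, under TMM scaling and with GC and length offsets. The first replicates of both groups lie farthest from 0, at 0.79 and -0.77 in the lowest bin, and the line with offsets lies near 0.

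Of 12114 genes tested with edgeR, 5375 (44.4%) were called at an adjusted p below 0.05 under TMM scaling, 3067 (25.3%) higher and 2308 (19.1%) lower in the Brd9 knockdown. With an offset for length alone the split was 2431 higher and 2786 lower. With offsets 3383 (27.9%) were called, 1468 (12.1%) higher and 1915 (15.8%) lower. The set called in the same direction by both fits held 2027 genes (16.7%), of which 960 (7.92%) were higher and 1067 (8.81%) lower. Only 31.3% of the genes higher under TMM and 46.2% of those lower were also called with offsets, and 45 genes were called in opposite directions, all of them higher under TMM and lower with offsets. Under TMM the genes higher in the Brd9 knockdown had a median GC content of 44.1% and those lower 56.3%. In the set called by both fits these medians were still 47.6% and 54.5%, around 50.6% for all tested genes, and with offsets alone both were 50.7%. Differences of at least 4-fold in both fits were seen for 101 genes higher and 33 lower. Without Brd9 replicate 1 the calls fell to 1101 under TMM and 1637 with offsets, and the set called by both to 310 higher and 257 lower. With Baf180 replicate 1 left out these were 1988, 2406, 583 and 458, and without Brd9 replicate 2 the set called by both held 803 higher and 706 lower.

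**Figure D2:**
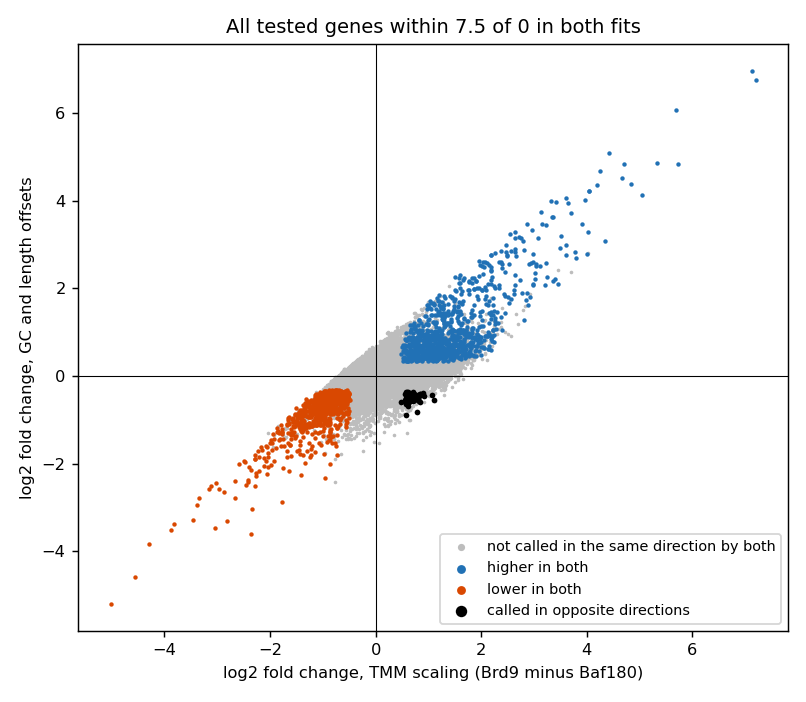
Log2 difference, Brd9 minus Baf180, of each tested gene under TMM scaling (horizontal) and with GC and length offsets (vertical); the 2 genes beyond 7.5 on either axis are not drawn. Blue and orange points are the 960 genes higher and 1067 lower in both fits, grey points are called in 1 fit or none, and black points are the 45 genes called in opposite directions.

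Of the other SWI/SNF subunits, 3 differed in both fits, all higher in the Brd9 knockdown. Bicral, a subunit of ncBAF, had 532 and 416 counts against 139 and 218, a difference of 1.26 ± 0.27 under TMM and 1.06 ± 0.17 with offsets (adjusted p = 0.00133 and 0.000959). Smarca2, the alternative ATPase motor, had 493 and 339 counts against 129 and 174, and differed by 1.30 ± 0.27 and 0.77 ± 0.16 (adjusted p = 0.00116 and 0.00343). Ss18l1, the paralog of the subunit Ss18, had 134 and 124 counts against 26 and 61, with 1.43 ± 0.35 and 1.22 ± 0.28 (adjusted p = 0.00371 and 0.00656). The CPM of the groups did not overlap at these 3 genes, which was so for 79.1% of all tested genes. Per kilobase these are scarce subunits: Smarca2 stood at 4.51 and 1.83 CPM, where the other motor, Smarca4, stood at 71.5 and 97 CPM. The PBAF partners Arid2 and Brd7 were called higher under TMM only, by 1.06 and 0.75, with 0.20 and 0.37 under offsets. Phf10 and the ncBAF subunit Bicra were called in neither fit, nor was any of the 4 cBAF subunits tested (Arid1a, Arid1b, Dpf1 and Dpf2). Of the 15 shared subunits tested, Smarcc1 (0.62 and 0.21) and Ss18 (0.58 and 0.20) were higher, and Smarcb1 (-0.54 and -0.04), Smarcd2 (-0.74 and -0.29), Smarcd3 (-0.59 and 0.01) and Bcl7c (-0.74 and -0.04) lower, under TMM only. With offsets only, Smarce1 (0.16 and 0.32) and Bcl7b (-0.05 and 0.50) were higher. Smarca4, Smarcc2, Smarcd1, Actl6a and Bcl7a were called in neither fit, and Dpf3 and Actl6b did not pass the filter on low counts.

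Among genes averaging 5 CPM or more with the groups apart, the 14 of largest positive difference called in both fits held 4 from the list of neuronal genes. Stmn4, a microtubule regulator of neurons, had 261 and 213 counts under Brd9 knockdown and 4 and 4 under Baf180 knockdown, a difference of 5.70 ± 0.42 under TMM and 6.08 ± 0.33 with offsets (adjusted p = 4.48e-08 and 2.07e-07). Lrrn1, a leucine-rich repeat membrane protein, had 538 and 327 counts against 9 and 10 (5.33 ± 0.38 and 4.86 ± 0.27). Nefl, the light neurofilament chain, had 1005 and 1000 against 28 and 43 (4.67 ± 0.29 and 4.53 ± 0.18), and L1cam, a neural adhesion molecule, 419 and 405 against 18 and 27 (4.04 ± 0.32 and 4.23 ± 0.22). In each of these genes both Brd9 libraries stood above both Baf180 libraries, which is part of how they were chosen. Also among these 14 were Prrg4 (3.60), the adaptor Sorbs2 (3.12), Osbp2 of the oxysterol-binding family (2.96), the Z-disc protein Pdlim3 (2.80), Lpl, which releases fatty acids from lipoproteins (2.77), the neurofilament chain Nefm (2.65), the cytokine signalling inhibitor Socs2 (2.64) and the matrix protein Postn (2.63), all under TMM. With offsets Lpl stood at 1.90 and Postn at 1.88, and the other 6 between 2.31 and 3.33.

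On the lower side, Slco4a1, an organic anion transporter, had 18 and 13 counts under Brd9 knockdown and 187 and 211 under Baf180 knockdown (-3.82 ± 0.35 and -3.37 ± 0.27; adjusted p = 8.26e-07 and 6.48e-06). Pdgfb, the B chain of platelet-derived growth factor, had 44 and 33 against 328 and 380 (-3.35 ± 0.30 and -2.79 ± 0.23), and Acta1, skeletal muscle actin, 194 and 264 against 1963 and 1717 (-3.15 ± 0.24 and -2.59 ± 0.14). Lama4, a laminin chain, had 101 and 71 against 386 and 368 (-2.29 ± 0.28 and -2.52 ± 0.18). Tap1, a subunit of the transporter that supplies peptides to MHC class I, had 62 and 59 counts against 272 and 239 (-2.23 and -1.72), and Cd74, the invariant chain of MHC class II, 39 and 47 against 169 and 181 (-2.17 and -1.62). The groups were apart at all 6 genes, which is part of how these genes were chosen. Rdm1, Tax1bp3, the calcification inhibitor Mgp and the tetraspanin Tspan11 differed by -2.04 to -2.29 under TMM and by -1.77 to -1.88 with offsets. Tmem254c (266 and 260 counts against 17 and 1) and Tmem254b (0 and 0 against 263 and 243) passed the same rule in opposite directions. They are near-identical neighbours on chromosome 14 between which reads may be split, so both are uncertain. On a floor of 3 counts per library, Tmem254b was at least 93.7-fold lower.

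**Figure D3:**
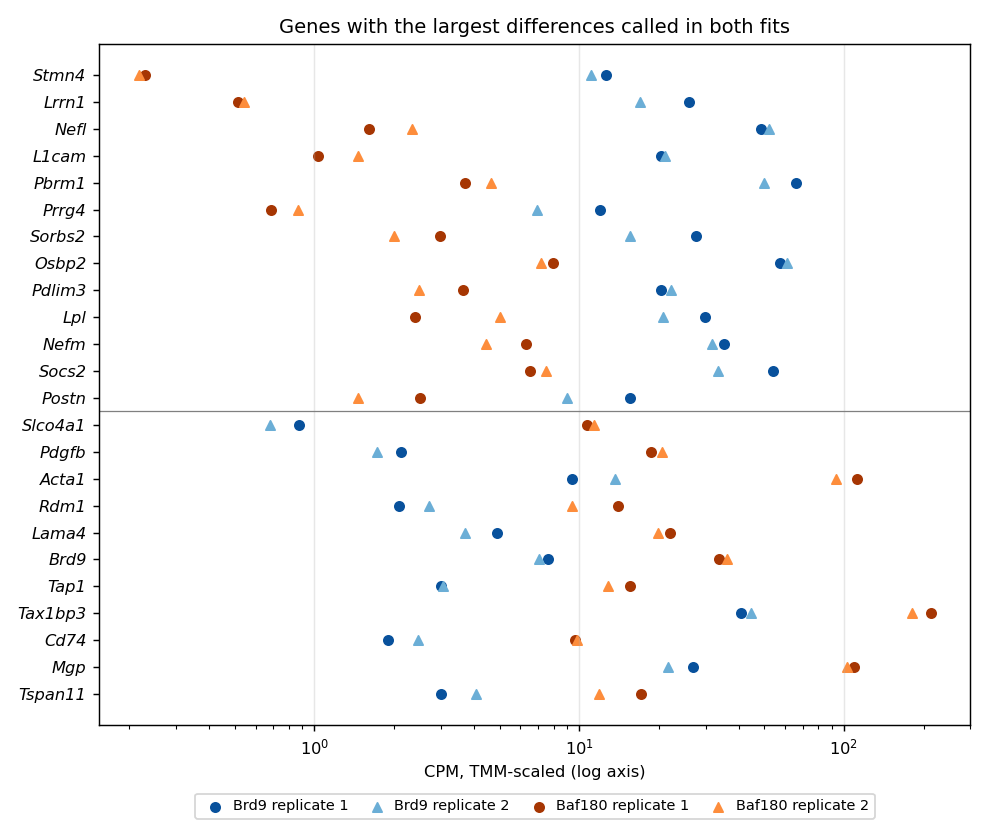
CPM scaled by TMM (log axis) in each library for genes among those with the largest differences called in both fits at a mean of 5 CPM or more, without the Tmem254 copies; 13 genes higher in the Brd9 knockdown stand above the grey line and 11 lower below it. Circles are replicate 1 and triangles replicate 2 of each knockdown, and the blue Brd9 points and orange Baf180 points are apart in each gene. That they are apart is part of how the genes were chosen, and Pbrm1 and Brd9 are the targets.

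Neuronal genes were mostly higher in the Brd9 knockdown. Of 30 listed, 16 passed the filter on low counts. Of all tested genes 25.3% were higher and 19.1% lower under TMM, 12.1% and 15.8% with offsets, and 7.92% and 8.81% in both. Of the 16 neuronal genes, 9 (56.2%) were higher and 2 (12.5%) lower in each fit, and 8 (50%) were higher in both. Their median difference was 1.38 under TMM and 1.17 with offsets, where the median over all tested genes was 0.02 and -0.03. Beside Stmn4, Nefl, L1cam and Nefm, those higher in both fits were Gap43, a growth cone protein (135 and 141 counts against 7 and 12; 3.70 ± 0.39 and 3.71 ± 0.31), the neurotrophin receptor Ngfr (49 and 75 against 8 and 9; 2.71 ± 0.43 and 3.17 ± 0.37), the polysialyltransferase St8sia2 (1.61 and 1.42) and the ubiquitin hydrolase Uchl1 (1.17 and 1.77). The synaptic vesicle protein Syn1 (552 and 706 counts against 1744 and 1134; -1.34 ± 0.24) and the microtubule protein Mapt (16 and 9 against 38 and 21; -1.39 ± 0.45) went the other way in both fits. The list thus did not move as a block, and its summed level was only 1241 and 1123 CPM against 978 and 1032. With any 1 library left out, 8 to 9 members were higher under TMM and 9 to 10 with offsets. Genes of the neuromuscular synapse, which muscle itself makes, were split as well. Of 9 tested, 33.3% were higher and 11.1% lower in both fits. The acetylcholine receptor subunits Chrnd (284 and 287 counts against 53 and 40, with 2.47 and 2.84) and Chrng (1.37 and 1.64) and the MuSK activator Dok7 (1.10 and 1.64) were higher in both fits. Rapsn, which clusters the receptor, was lower (1132 and 1284 against 3134 and 2420; -1.35 and -0.75).

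Genes of cholesterol synthesis and uptake were lower in the Brd9 knockdown. The pathway builds sterols from acetyl-CoA through mevalonate, and its genes are known as targets of the transcription factor Srebf2, which is held back by Insig1 when sterols are plentiful. All 25 listed genes were tested. Under TMM 16 (64%) were lower and 2 (8%) higher (median -0.72), where 19.1% and 25.3% of all tested genes were. With offsets 21 (84%) were lower and 0 higher in edgeR (median -0.71), where 15.8% and 12.1% of all tested genes were. In both fits 16 (64%) were lower, against 8.81% of all tested genes. At an unadjusted p below 0.05 the count higher with offsets was also 0, and DESeq2, without offsets, called 2 higher and 16 lower. Among genes in the middle 50% by GC content (45.9% to 55.3%), scaled among themselves, 9 of 12 were lower, where 928 of 5997 genes were lower. With any 1 library left out, 17 to 22 members were lower with offsets and 8 to 14 under TMM, the lowest number being without Brd9 replicate 1.

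By step, the mevalonate enzymes were lower: Mvk, mevalonate kinase, had 604 and 627 counts against 1820 and 1381 (-1.53 ± 0.22 and -0.90 ± 0.12, adjusted p = 8.22e-05 and 0.000254), and Mvd, the decarboxylase, 422 and 499 against 1396 and 863 (-1.45 ± 0.25 and -0.83 ± 0.15). Hmgcs1, which makes the precursor of mevalonate, was called only with offsets, by -0.94 ± 0.12, and stood at -0.06 under TMM. Its transcript holds 43.3% GC. Of the later sterol steps, Lss, which closes the sterol rings, had 784 and 713 counts against 1062 and 1050 (-0.65 ± 0.20 and -0.67 ± 0.12). Of the feedback genes, Insig1 had 911 and 665 against 825 and 1341 (-0.61 ± 0.23 and -0.85 ± 0.15). Counts of Insig1 overlap between the groups before scaling, and its CPM do not (44.1 and 34.6 against 47.1 and 72.6). The CPM of the groups did not overlap at 79.1% of all tested genes. The 2 members called higher under TMM, Idi1 (0.77) and Sc5d (0.78), are low in GC at 41.9% and 42.9% and stood at -0.17 and -0.06 with offsets.

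**Figure D4:**
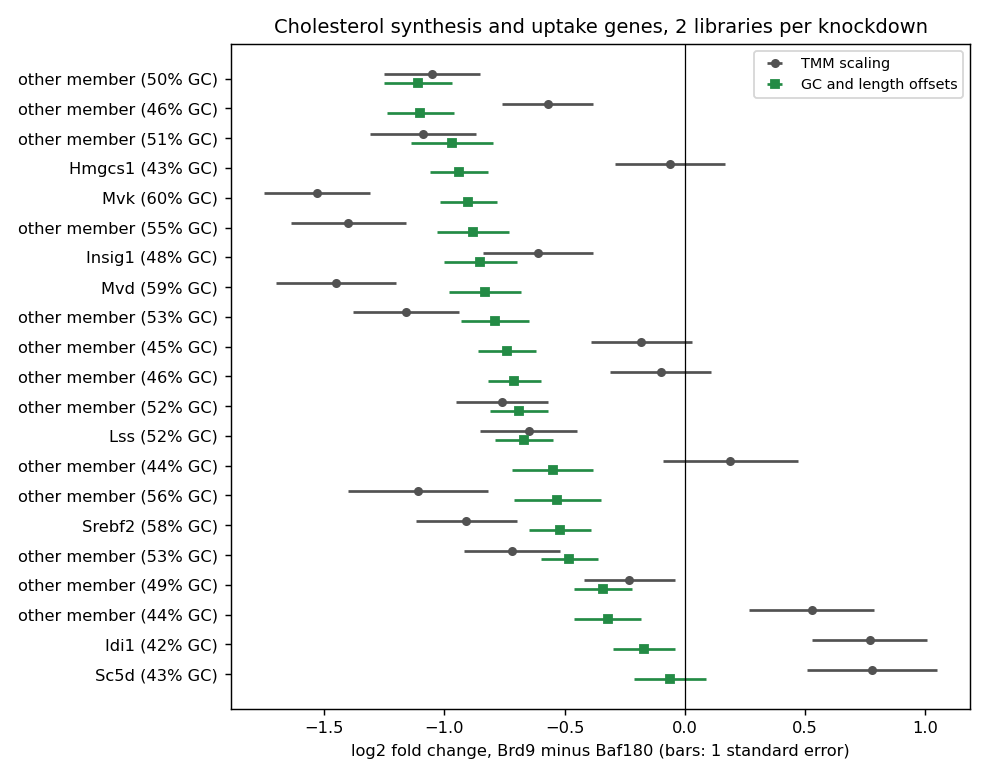
Log2 difference, Brd9 minus Baf180, of 21 cholesterol genes with 1 standard error, under TMM scaling (grey circles) and with GC and length offsets (green squares), ordered by the value with offsets, with the transcript's GC content; the 8 genes named in the text carry their names. With offsets all 21 lie below 0, from -1.11 to -0.06 (Sc5d).

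As these members differed together, the bases before their starts are shown for 4 genes from different steps. The 250 bases before the RefSeq start on GRCm38.p6 were at chr13:119690101-119690350 for Hmgcs1, chr5:114444019-114444268 for Mvk, chr10:76531355-76531604 for Lss and chr5:28071162-28071411 for Insig1, all on the plus strand, and are written 5′ to 3′. Capitals mark CCAAT or its reverse complement ATTGG, the box bound by NF-Y, and a match to the sterol regulatory element TCACNCCAC on either strand.
Hmgcs1: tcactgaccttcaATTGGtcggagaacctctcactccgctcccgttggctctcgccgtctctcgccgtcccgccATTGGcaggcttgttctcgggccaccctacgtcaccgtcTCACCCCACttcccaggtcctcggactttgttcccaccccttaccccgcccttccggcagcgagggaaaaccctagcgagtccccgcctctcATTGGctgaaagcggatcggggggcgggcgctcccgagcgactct
Mvk: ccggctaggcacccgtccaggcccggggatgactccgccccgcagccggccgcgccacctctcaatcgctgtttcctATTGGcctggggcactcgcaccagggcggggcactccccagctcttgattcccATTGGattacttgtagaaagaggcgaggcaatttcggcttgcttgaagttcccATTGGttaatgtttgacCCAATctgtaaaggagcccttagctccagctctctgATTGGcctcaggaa
Lss: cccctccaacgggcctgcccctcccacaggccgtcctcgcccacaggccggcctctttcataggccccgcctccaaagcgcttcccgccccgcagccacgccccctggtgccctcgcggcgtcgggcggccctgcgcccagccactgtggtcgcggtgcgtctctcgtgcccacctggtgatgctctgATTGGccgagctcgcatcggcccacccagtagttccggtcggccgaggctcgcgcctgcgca
Insig1: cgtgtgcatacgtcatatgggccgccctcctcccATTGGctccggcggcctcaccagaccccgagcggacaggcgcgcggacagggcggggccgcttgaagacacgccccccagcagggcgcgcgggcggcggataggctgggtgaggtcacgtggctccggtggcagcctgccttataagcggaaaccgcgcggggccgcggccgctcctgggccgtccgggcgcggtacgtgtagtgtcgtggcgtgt
Hmgcs1 held 3 CCAAT boxes and the single sterol element found, 137 bases before the start, Mvk held 5 boxes, and Lss and Insig1 held 1 each. In windows from 250 bases before to 50 after the start, 16 of the 17 cholesterol genes with a window (94.1%) held a CCAAT box, against 43.4% of 9653 tested genes and 37.4% of all 32851 windows. The sterol element, as spelled here, was in 1 of 17, against 1.4% of tested genes. Among the 17, a box was in 13 of the 14 called lower with offsets and in all 3 of the others. These matches describe letters and are not evidence of binding.

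In 3 lists of extracellular matrix genes 31.6% to 35% of the tested members were lower in both fits, where 8.81% of all tested genes were, with single genes far in the other direction. The median GC content of these lists was 53.8% to 57.8%, against 50.6% for all tested genes. Genes lower in both fits numbered 183 of 1200 in the highest GC bin and 4 of 1200 in the lowest. The 8.81% is therefore not matched for GC content. Among genes of 45.9% to 55.3% GC, scaled among themselves, 928 of 5997 were lower. There 2 of 8 collagens, 4 of 8 elastic fibre genes and 2 of 12 laminin genes were lower, and 0, 1 and 3 higher. Of 22 collagens tested, 10 were lower and 2 higher under TMM, 11 and 2 with offsets, and 7 and 2 in both. Col8a2 had 431 and 308 counts against 737 and 678 (-1.09 ± 0.23 and -0.65 ± 0.16), and Col6a2, a chain of the collagen around muscle fibres, 1878 and 1655 against 3159 and 2576 (-0.85 ± 0.20 and -0.37 ± 0.12). Col27a1 (77 and 69 against 25 and 17; 1.64 and 1.93) and Col5a3 (0.67 and 1.06) were the 2 higher. Of 20 elastic fibre genes, 10 were lower and 3 higher under TMM, 9 and 3 with offsets, and 7 and 2 in both. Among them were the latent TGF-beta binding proteins Ltbp2 (3781 and 4044 against 10255 and 9184; -1.46 ± 0.21 and -1.16 ± 0.12) and Ltbp3 (5241 and 5935 against 15682 and 12471; -1.48 ± 0.22 and -1.04 ± 0.12) and Fbln5, which organises elastin (1153 and 1147 against 2409 and 2489; -1.24 and -1.85). Loxl2, a crosslinking enzyme, was higher (1338 and 1295 against 503 and 582; 1.13 and 1.39), as was the microfibril protein Mfap2 at few counts (22 and 21 against 3 and 3). Of 19 laminin and basement membrane genes, 7 were lower and 3 higher in each fit. Beside Lama4, Lamb2 (-1.07 and -0.71) and Hspg2, the proteoglycan perlecan (22759 and 26259 against 49460 and 44300; -1.08 and -0.93), were lower, while Lama1 (1.28 and 1.27), Nid1 (0.87 and 0.68) and Npnt (0.78 and 0.80) were higher. Matricellular and adhesion proteins (4 higher and 4 lower of 16 under TMM, 3 and 5 with offsets) and matrix proteases and their inhibitors (3 and 9 of 26, and 4 and 7) were lower in both fits for 18.8% and 19.2% of members. The small proteoglycan Bgn had 17706 and 18454 counts against 51994 and 44812 (-1.57 ± 0.23 and -1.34 ± 0.14). Leaving out Brd9 replicate 1, only 2 collagens, 4 elastic fibre genes and 2 laminin genes were lower under TMM, and 11, 5 and 5 with offsets. Leaving out Baf180 replicate 1, they were 4, 4 and 5 under TMM and 10, 6 and 6 with offsets, and without Brd9 replicate 2 collagens were at 6 and 5.

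Receptors that read the matrix and guidance cues had members on both sides. Of 13 integrins, 5 were lower in both fits: Itgb5 (3536 and 3519 counts against 8031 and 7171; -1.26 ± 0.20 and -0.79 ± 0.12), Itga5, of the fibronectin receptor (-0.88 and -0.49), Itga7, of the muscle laminin receptor (-0.78 and -0.37), Itgb3 (-0.53 and -0.53) and Itgb4 (-1.15 and -0.82). Only Itga11, of a collagen receptor, was higher in both (351 and 335 against 71 and 64; 2.19 ± 0.28 and 2.49 ± 0.18). Of 46 axon guidance genes, 9 (19.6%) were lower and 2 (4.35%) higher in both. Over all tested genes these shares were 8.81% and 7.92%, and over the integrins 38.5% and 7.69%. Ephb2 (1005 and 924 against 2202 and 2121; -1.31 and -1.20), Ephb6 (-1.40 and -0.92) and Ntn1, a secreted netrin (2731 and 2894 against 5530 and 6069; -1.19 and -0.87), were lower. Sema6a (441 and 346 against 63 and 78; 2.33 and 2.01) and the Slit receptor Robo1 (0.83 and 0.46) were higher. Among genes of 45.9% to 55.3% GC, 3 of 16 axon guidance genes were higher and 0 lower (1 unadjusted). Of 4 integrins there, 1 was higher and 1 lower. The integrins called lower were 1 in each fit without Brd9 replicate 1, and 2 under TMM and 3 with offsets without Baf180 replicate 1. The axon guidance genes called lower without Brd9 replicate 1 were 5 and 12.

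Sarcomere genes were called in both directions, while more smooth muscle genes and myoblast markers were lower than higher in the Brd9 knockdown. In both fits 21.7% of sarcomere genes were higher and 17.4% lower. Of smooth muscle genes 7.69% were higher and 30.8% lower, and of the 10 myoblast markers 0% and 40%. Over all tested genes these shares were 7.92% and 8.81%, which are not matched for GC content. Of 23 sarcomere and muscle structural genes tested from a list of 55, 5 were higher and 4 lower in both fits, around a median of 0.01 under TMM and 0.37 with offsets. Higher were Ttn, the giant spring protein (65 and 41 counts against 5 and 4; 3.37 ± 0.48 and 2.17 ± 0.44), Xirp1 (93 and 103 against 26 and 24; 1.82 and 2.12), Mylpf (1.96 and 2.29), Myh3 (1.87 and 1.98) and Actn3 (0.66 and 1.17). Lower were Acta1, Tnnt2, a troponin (293 and 304 against 644 and 609; -1.22 ± 0.23 and -0.72 ± 0.13), the intermediate filament protein Des (-1.01 and -0.54) and its chaperone Cryab (-0.95 and -0.59). Of the transcription factors, Myod1 had 2941 and 3460 counts against 6319 and 5356 and was lower in both fits (-1.01 ± 0.21 and -0.43 ± 0.11, adjusted p = 0.00108 and 0.0139). Myf5, the other early myogenic factor, was called higher under TMM only (502 and 347 against 123 and 197; 1.26 ± 0.28 and 0.32 ± 0.16, adjusted p = 0.00184 and 0.149). The transcript of Myod1 holds 58.9% GC and that of Myf5 41.6%. Myog (-0.35 and 0.10) and Pax7 (-0.41 and -0.09) were called in neither fit, and the cadherin Cdh15 under TMM only (-0.82 and -0.25). Msc, a repressor of myogenesis (41 and 51 against 8 and 13; 1.98 and 2.54), Six4 (1.29 and 0.58) and Mymk, the myoblast fusion protein (34 and 42 against 3 and 7; 2.76 and 3.15), were higher in both. Of 13 smooth muscle genes, 4 were lower in both: Actg2 (9044 and 11637 against 24240 and 19392; -1.22 and -0.90), Acta2 (-0.81 and -0.88), Myh11 at few counts, and Des. Cnn1 was higher (0.50 and 0.66), a TMM call lost in DESeq2 and without any 1 library. Among smooth muscle genes, edgeR called 0 lower under TMM without Brd9 replicate 1, where 3 had an unadjusted p below 0.05, and 3 with offsets.

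Lists of secreted factors and their pathways held calls in both directions, at shares that were mostly near those of all tested genes (7.92% higher and 8.81% lower in both fits), so single genes are described. Of 32 growth factor genes and their receptors and binding proteins, 4 were higher and 4 lower in both fits (12.5% each). Igf2, a fetal growth factor, had 72 and 76 counts against 4 and 9 (3.34 ± 0.44 and 3.64 ± 0.38, adjusted p = 5.32e-05 and 4.05e-05), and its binding protein Igfbp2 had 12995 and 13203 against 4422 and 3440 (1.58 ± 0.21 and 2.23 ± 0.13). H19, the noncoding RNA beside Igf2 on chromosome 7, did not go with it: 29677 and 27933 against 47038 and 41745, called lower under TMM (-0.78 ± 0.23, adjusted p = 0.0109) and not with offsets (-0.30 ± 0.14, adjusted p = 0.122). Igfbp5 (1.01 and 0.81) and the receptor Erbb3 (1.38 and 1.39) were the others higher, the call of Erbb3 being lost in DESeq2 and, in both fits, without any 1 library. Igfbp6 (-1.14 and -0.47), the PDGF receptor Pdgfrb (-0.86 and -0.62) and Vegfc (-1.14 and -1.74) were lower, as was Pdgfb. In the Wnt pathway, 4 of 35 genes (11.4%) were higher and 2 (5.71%) lower in both, with Dkk3, a secreted Dickkopf protein (220 and 168 against 22 and 39; 2.52 and 2.55), Wnt7b (2.38 and 2.86), Nkd2 (0.95 and 1.19) and the receptor-degrading ligase Znrf3 (1.14 and 1.00) higher and the receptors Fzd2 (-0.96 and -0.55) and Ror1 (-1.23 and -1.80) lower. In the TGF-beta and BMP pathway, 2 of 39 (5.13%) were higher, the signal transducers Smad1 (0.91 and 0.82) and Smad5 (1.15 and 0.34), and 6 (15.4%) lower, among the latter the ligands Tgfb3 (2236 and 2110 against 4020 and 4116; -1.05 and -0.86) and Inhbb (-1.18 and -0.71) and the BMP antagonist Chrd (-1.67 and -1.12). Of bone and cartilage genes, Alpl, an alkaline phosphatase (107 and 95 against 16 and 13; 2.64 and 3.14), was higher, while Col2a1, cartilage collagen (6 and 3 against 90 and 74; -4.30 and -3.83), and Mgp were lower, so that this list too had members at both ends. Of 25 HOX and Sox factors, Hoxc13 (751 and 568 against 290 and 366; 0.86 and 1.20), Hoxa3 (1.01 and 1.29), Sox4 (0.53 and 0.63; its TMM call lost in DESeq2 and without any 1 library) and Sox9 (0.64 and 0.42) were higher in both fits and Sox8 lower (62 and 57 against 176 and 188; -1.76 and -1.43). Without either first replicate edgeR called 0 HOX and Sox factors higher under TMM (2 unadjusted without Brd9 replicate 1 and 3 without Baf180 replicate 1), and 4 and 5 with offsets. The growth factor genes without Brd9 replicate 1 were 3 higher and 3 lower under TMM, and 3 and 9 with offsets.

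Of 50 lysosome genes tested, 27 were lower and 6 higher under TMM (median -0.54), 18 and 2 with offsets (median -0.29), and 15 and 1 in both. The 15 are 30% of the list, where 8.81% of all tested genes were lower in both fits, and the other members did not pass in both. The proton pump subunits Atp6v0a1 (991 and 1071 counts against 2682 and 2259; -1.41 ± 0.21 and -1.26 ± 0.13) and Atp6v0c (-1.07 and -0.54) were lower, as was the membrane protein Gpnmb at few counts (7 and 8 against 29 and 28). Lamp2, a lysosomal membrane protein, was the 1 member higher in both (3378 and 1854 against 626 and 887; 1.63 and 0.59). The members lower without Brd9 replicate 1 were 2 under TMM and 7 with offsets, without Baf180 replicate 1 they were 6 and 9, and without Brd9 replicate 2 they were 16 and 14. The CLEAR element TCACGTGA, known from lysosome promoters, was in 6 of the 38 genes of this list with a promoter window (15.8%). It was in 2.29% of all tested genes with a window. Of the 18 list members lower with offsets, 12 had a window, and 0 of these 12 held the element. Antioxidant genes of the Nrf2 pathway had 7 lower and 1 higher in both of 27 tested, namely Nqo1 (1208 and 1134 against 1711 and 2167; -0.87 and -1.24), Sod3 (-1.40 and -1.14), Gstm2 (-1.07 and -0.86) and the cystine transporter Slc7a11 (1758 and 2126 against 4046 and 2718; -0.95 and -2.33) among those lower, and catalase, Cat, higher (0.71 and 0.53). Only 1 antioxidant gene was lower under TMM without Brd9 replicate 1, and 5 with offsets, and without Baf180 replicate 1 the numbers were 3 and 8.

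Counts of cell cycle and DNA repair genes called higher were smaller with offsets than under TMM. Over all tested genes the shares higher and lower were 25.3% and 19.1% under TMM, 12.1% and 15.8% with offsets, and 7.92% and 8.81% in both. Of 70 mitosis genes, 33 (47.1%) were higher and 9 (12.9%) lower under TMM (median 0.46). With offsets 6 (8.57%) were higher and 8 (11.4%) lower (median -0.04), and in both fits 4 (5.71%) and 3 (4.29%). Ncapg (1.76 and 0.54), Ttk (1.28 and 0.45), Spc25 (1.16 and 0.49) and Kif4 (0.87 and 0.45) were the 4, and Cdc25b (-1.11 and -0.78), Ncapd2 (-0.75 and -0.54) and Espl1 (-0.58 and -0.35) the 3. The median GC content of the list was 46.5%. Mki67, a marker of cycling cells, had 2026 and 2207 counts against 1352 and 961, and stood at 0.72 ± 0.22 (adjusted p = 0.0123) under TMM and -0.09 ± 0.22 (adjusted p = 0.803) with offsets. Of 54 DNA repair genes, 19 (35.2%) were higher and 4 (7.41%) lower under TMM, and 2 (3.7%) were higher and 2 (3.7%) lower with offsets. The 2 higher with offsets were Lig3 (0.46 and 0.33) and Rbbp8, which helps to start end resection and was called in both (1.55 and 0.51). DNA replication genes had 12 higher (21.8%) and 10 lower (18.2%) of 55 under TMM, where 25.3% and 19.1% of all tested genes were called, and 0 and 12 with offsets in edgeR, where 0 had an unadjusted p below 0.05 on the higher side. DESeq2, without offsets, called 10 higher and 12 lower. The 5 lower in both were the helicase subunit Mcm5 (-0.93 and -0.82), the polymerase subunit Pold1 (-1.02 and -0.50), the methylation maintenance factor Uhrf1 (-0.87 and -0.66), the histone chaperone Chaf1b (-0.82 and -0.49) and Rpa2 (-0.66 and -0.46). Ccnd1 (0.12 and 0.11), Cdkn1a (-0.48 and -0.10) and Myc (-0.00 and 0.36) were called in neither fit, and Cdkn1c under TMM only (-1.10 and -0.53). Mitosis genes higher under TMM were 10 without Brd9 replicate 1 and 21 without Baf180 replicate 1, and DNA repair genes 4 and 10. Mitosis genes lower with offsets were 2 and 5 in these fits, and 13 without either second replicate. Replication genes were 2 higher and 0 lower (3 unadjusted) under TMM and 3 lower with offsets without Brd9 replicate 1, 4, 0 (5 unadjusted) and 8 without Baf180 replicate 1, and 19 and 17 were lower with offsets without Brd9 or Baf180 replicate 2.

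In 3 lists of chromatin genes 38.7% to 60% of members were higher under TMM and 20% to 29% with offsets, where 25.3% and 12.1% of all tested genes were. Of 20 remodellers of the CHD, ISWI and INO80 families, 12 were higher under TMM in edgeR and in DESeq2 and 4 with offsets, with medians of 0.74 and 0.21. None was called lower in these fits, and at an unadjusted p below 0.05 there were 0 lower under TMM and 1 with offsets. The ISWI motor Smarca5 had 2144 and 1485 counts against 389 and 501 (1.88 ± 0.22 and 0.69 ± 0.12, adjusted p = 1.61e-05 and 0.00161), and Hells (1.91 and 0.59), Baz1a (1.33 and 0.57) and Chd7 (0.81 and 0.56) were the others called in both. Of 23 BET and acetyltransferase genes, 12 were higher under TMM, 6 with offsets and 5 in both: Kat2b (555 and 348 against 77 and 196; 1.58 and 1.02), Atad2 (1.79 and 0.58), Brwd1 (1.14 and 0.54), Brd3 (0.61 and 0.54) and Ep300 (0.68 and 0.47). Of 31 Polycomb genes, 7 were higher in both, among them Pcgf6 (220 and 161 against 44 and 66; 1.64 and 1.20) and Bmi1 (1.69 and 0.51), and Cbx7 was lower (-1.19 and -0.70). The remodellers higher without Brd9 replicate 1 were 5 under TMM and 2 with offsets, the acetyltransferase list 4 and 1, and the Polycomb list 4 and 3. Without Baf180 replicate 1 they were 7 and 4, 6 and 2, and 8 and 5.

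Of the large housekeeping machines, 75 subunits of oxidative phosphorylation had 27 lower and 1 higher under TMM, 21 and 3 with offsets, and 7 and 1 in both, so that the 2 fits mostly called different subunits. The 7 are 9.33% of the list, near the 8.81% of all tested genes. Within each fit, though, the share lower was above that of all tested genes. It was 36% against 19.1% under TMM and 28% against 15.8% with offsets, with list medians of -0.41 and -0.18. Sdhd, of complex II, was the 1 higher in both (1626 and 1630 against 694 and 829; 0.95 and 0.93). Without Brd9 replicate 1, edgeR called 0 subunits lower under TMM (6 at an unadjusted p below 0.05) and 6 with offsets, and without Baf180 replicate 1 it called 0 (1 unadjusted) and 13. Of 81 cytosolic ribosomal proteins, 15 (18.5%) were lower under TMM and 11 (13.6%) with offsets, shares at or below the 19.1% and 15.8% of all tested genes, and only Rpsa was lower in both (-0.65 and -0.57). Without Brd9 replicate 1 edgeR called 0 of them lower under TMM (1 unadjusted) and 5 with offsets, and without Baf180 replicate 1 it called 0 (1 unadjusted) and 9.

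**Figure D5:**
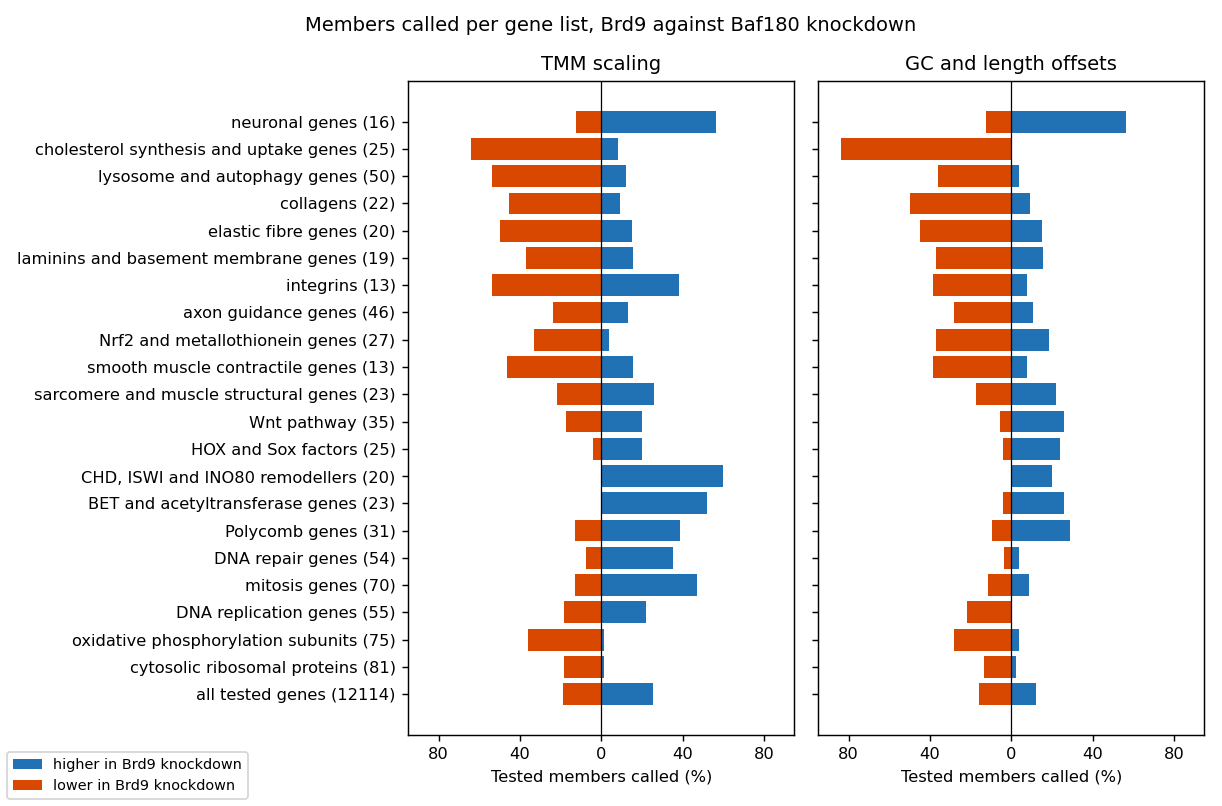
Share of tested members called higher (blue, to the right) and lower (orange, to the left) in the Brd9 knockdown, per gene list, under TMM scaling (left) and with GC and length offsets (right); the number tested is in parentheses and the bottom bar holds all 12114 tested genes. Neuronal and cholesterol genes lie far from the bottom bar in both panels, while the share of mitosis and DNA repair genes called higher is above it under TMM and below it with offsets.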

How the data were processed

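RNA was measured in 8 libraries of C2C12 myoblasts, of which the 2 Brd9 and 2 Baf180 libraries were used. The table the authors deposited holds estimated counts per gene and library, without normalisation. Tools listed, without roles, in the submitters' processing notes are RSEM, Bowtie2, HISAT2, StringTie, Cufflinks and DESeq2, and the build there is mm10. Their versions and the strand of counting were not given in the sources used here, and genes that overlap are therefore uncertain. Another deposited column, named length in its header, gives a length in bases per gene.

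Estimated counts were rounded. Of 24573 genes, 24479 were matched to names by gene ID, 9 by accession, and 85 were not matched. Genes were filtered by filterByExpr, scaled by TMM and tested with glmQLFit and glmQLFTest in edgeR 4.0.16 (R 4.3.3) on the 4 libraries, with Benjamini-Hochberg adjustment over all tested genes and a threshold of 0.05. The second fit added offsets from loess curves (span 0.3) of each library's deviation on transcript GC content, from GENCODE M21 transcripts, and then on log2 length; 99% of tested genes had a GC content. CPM are TMM-scaled. Both fits were also run on counts simulated at a fixed spread. Where these held a GC and length trend, it came from the same curves as the offsets. That run therefore cannot show how well the offsets suit these data. Promoter windows came from RefSeq on GRCm38.p6. For a gene at 0 in a group, the fold is a bound, with 3 counts in each library as the floor. Depth was 18148388 to 20400855 counts, and bounds cover counting error only.

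Groups came from the sample titles. The question, the gene lists and the rule for named genes were chosen with earlier results of these data known, so the lists are described by counts and medians and not tested. Named were the targets and SWI/SNF subunits; the 14 largest differences in each direction called in both fits, averaging 5 CPM or more, with groups apart; up to 4 members per described list of lowest p among those called in both fits; and 12 genes of myogenesis, growth and the cell cycle. Genes named to account for a count of 5 or fewer, or as members of a described step or family, were chosen after their values were seen. Genes called in opposite directions are given as a count. Some genes that the rule names are counted in their lists and not reported singly here.

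Alternatives were RLE and upper-quartile scaling, other filters, DESeq2 1.42.0, limma-voom (limma 3.58.1), more libraries in the fit and GC or length offsets alone. Others took the middle 50% by GC content, a fold change of 1.5, the replicate number as a block, or left out each library. A crossed block and offsets with more libraries, RLE scaling or a mean of at least 5 CPM were added after the data were seen.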

Additional observations from a re-analysis of the deposited data

How the results depend on the processing

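Against 5375 calls under TMM there were 3292 with GC offsets alone (1503 higher), 3383 with GC and length offsets (1468 higher), 1645 at a tested fold change of 1.5 (1298 higher, 347 lower) and 2058 of 5997 genes in the middle 50% by GC content (1130 and 928). RLE scaling (5313), upper-quartile scaling (5323, of which 3502 higher), no filter (5567 of 15972 genes), a mean of at least 5 CPM (4417 of 9722), DESeq2 (5129), limma-voom (5245), length offsets alone (5217), all 8 libraries (6158) and the 6 knockdown libraries (5119) were within 1.5 times. Upper-quartile scaling moved the median of all genes to 0.11. Leaving out 1 library gave 1101 to 5515 calls under TMM (830 to 3071 higher, 271 to 2444 lower) and 1637 to 3827 with offsets (716 to 1626 and 921 to 2201). A group left with 1 library is assumed to vary like the other. In both fits these gave 310 to 978 higher and 257 to 1164 lower. Without Brd9 replicate 1, 30.3% of the genes higher and 22.8% of those lower in both fits were called again, and without Baf180 replicate 1, 52.3% and 41.3%. The GC trend was -0.57 between the second replicates. Apart from the fits with fewer samples or genes, the cause of these changes was not tested.

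The labels number the replicates in each group, but do not say that a number marks anything shared. Deviations of same-numbered libraries correlated at -0.74 across genes (-0.44 after offsets). Replicate 1 minus replicate 2 also ran with GC content in opposite directions, at rho -0.65 for Brd9 and 0.64 for Baf180. The correlation therefore cannot show whether same-numbered libraries had a culture or preparation in common. With the replicate block 2024 genes were called under TMM (1544 higher, 480 lower), 2716 with offsets (1204 and 1512), and 585 and 426 in both fits. A crossed block set Brd9 replicate 1 with Baf180 replicate 2, and Brd9 replicate 2 with Baf180 replicate 1. No label gives this pairing, and it was added after the data were seen. It gave 8685 (4470 and 4215), 5759 (2541 and 3218) and 1803 and 2138, and these numbers are therefore a description only.

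Of 160 genes named in the text and called in both fits, 12 lost the call in at least 1 fit under another scaling, no filter, another tool or more libraries: Cnn1, Dok7, Erbb3, Hoxa3, Insig1, Itgb3, Mapt, Myh11, Myh3, Ror1, Rpsa and Sox4. Like Cnn1, Erbb3 and Sox4, the genes Col5a3, Dok7, Itgb3, Myh3, Nkd2 and Rpsa lost the TMM call whichever library was left out. Without Brd9 replicate 1, 62 lost it under TMM and 36 with offsets, and without Baf180 replicate 1, 39 and 21.

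Some genes changed sign. Idi1 was at -0.17 with offsets, with the replicate block, the crossed block and RLE scaling besides, -0.21 with GC offsets alone, -0.16 with more libraries or a mean of at least 5 CPM, and -0.23, -0.11, -0.22 and -0.12 without Brd9 replicate 1, Brd9 replicate 2, Baf180 replicate 1 and Baf180 replicate 2. Sc5d was at -0.06 with offsets, the crossed block, RLE scaling or a mean of at least 5 CPM, -0.11 with GC offsets alone, -0.07 with the replicate block, -0.05 with more libraries and -0.21 to -0.04 without 1 library. Bcl7b was at 0.50 with offsets, either block or RLE scaling, 0.49 with more libraries, 0.57 at 5 CPM and 0.57 to 0.65 without a second replicate. Smarcd3 was at 0.01 with offsets, either block, more libraries or RLE scaling, 0.12 at 5 CPM and 0.05 to 0.06 without a first replicate. Mki67 was at -0.09 with offsets, the 6 knockdown libraries or RLE scaling, -0.06 with either block, -0.08 with all 8 libraries, -0.07 at 5 CPM and -0.44 to -0.39 without a second replicate. Myc was at 0.37 with the crossed block and offsets and 0.46 to 0.59 without a second replicate. Arid1a was at -0.52 with length offsets alone, and with offsets at 5 CPM Bcl7c was at 0.12 and Smarcb1 at 0.03, as Smarcb1 was without Brd9 replicate 1. The cause was not tested. Depth limits genes of few counts, such as Mfap2 and Gpnmb.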

Other observations

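Antigen presentation genes were lower in the Brd9 knockdown. This list was chosen after its values were seen, so it is described only. Of 52 listed genes 19 were tested, and 13 were lower in each fit and 12 in both, with medians of -1.27 under TMM and -0.83 with offsets. The class I heavy chain H2-K1 was among them (21.6 and 23.8 CPM against 68.6 and 57.3, with -1.47 ± 0.21 and -0.92 ± 0.12). So was the heavy chain H2-D1 (38.3 and 39.4 CPM against 101 and 83.8, with -1.25 ± 0.20 and -0.73 ± 0.12). B2m, the light chain of class I, was called with offsets only (-0.09 and -1.01). Class I genes are close copies of each other, so reads may be split among them. On chromosome 17, which carries most of them, 86 genes (14.1%) were lower in both fits, where 8.81% of all tested genes were. Of these 86, 11 are antigen presentation genes, and without that list the share was 12.6%.

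Interferon-stimulated genes did not share a direction: of 31 tested, 4 (12.9%) were higher and 5 (16.1%) lower in both fits. Over all tested genes these shares were 7.92% and 8.81%, and over the AP-1 and immediate early genes described below 3.45% and 17.2%. Gbp2, an interferon-induced GTPase, had 469 and 330 counts against 76 and 78 (2.22 and 1.78), and Xaf1 107 and 111 against 34 and 32 (1.57 and 1.37). Of 29 AP-1 and immediate early genes, only Atf3 was higher in both (87 and 76 counts against 12 and 16; 2.38 and 2.61), and 5 were lower, among them Egr1 (2043 and 1865 against 3792 and 3870; -1.12 and -0.84), Egr2 (-1.50 and -1.37) and Nr4a1 (-1.04 and -0.54). The chaperone Hsp90aa1 had 9986 and 8720 counts against 2474 and 2618 (1.73 and 0.98). Of the ion channels, the chloride transporter Clcn3 was higher (736 and 450 against 99 and 130; 2.22 and 1.38), and Trpv2 (358 and 401 against 1112 and 998; -1.62 and -1.31) and the potassium channel Kcnh1 (23 and 14 against 94 and 90; -2.46 and -2.50) were lower. These genes were picked after their values were seen.

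The histone gene H2ac18 had 0 and 0 counts against 130 and 62, at least 35.8-fold lower with a floor of 3 counts in each library. Its neighbour and close copy H2ac19 had 36 and 42 against 0 and 27, so both are uncertain.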
